A study of Drosophila melanogaster with 6 samples.

Results

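The step from late spermatocytes to early spermatids, at which male germ cells of Drosophila melanogaster pass through meiosis, was described from 10132 cells of 26549 in a single-cell RNA-seq series of whole testes. Its members were all cells that the authors' deposited annotation calls early spermatids (6264 cells) or late spermatocytes (3868 cells), with none left out. Within each library, the counts of unique molecular identifiers (UMIs, counted mRNA molecules) of each stage were summed, and the early spermatid sum was set against the late spermatocyte sum of the same library. The question was which RNAs are lost, kept or gained after meiosis, and whether that change differs between genotypes.

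The testes came from adult males of 2 genotypes at 3 ages, with 1 library of about 100 pairs of pooled testes for each genotype and age. The chinmoST males, a strain in which the somatic cyst stem cell lineage lacks the transcription factor Chinmo and becomes feminized, were labelled as carrying Sod1[X-39] e[1] over the balancer TM3 with Sb[1] and Ser[1], and were 3–5, 6–8 and 9–11 d old. The wild-type males were Oregon R of the same 3 ages. The 2 genotypes also differ in strain background, so a difference between them cannot be told apart from one between strains. The cell suspension was filtered in a way meant to remove spermatids, so the early spermatids here are those that passed. Each genotype thus has 3 libraries, which differ in age, and p-values measure the spread over pooled libraries of different ages, not over single males.

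In Drosophila, spermatocytes make most of the RNA that sperm formation needs. Transcription falls to a low level before the meiotic divisions, many messages are stored and translated days later, and only a small set of genes (the cup and comet genes) is known to be transcribed in spermatids. After the divisions the mitochondria of each spermatid fuse into a nebenkern, the axoneme of the tail grows, histones give way to protamines, and the sister cells are separated in individualization.

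From the youngest males to the oldest, early spermatid sums held 11005403, 5742536 and 3530901 UMIs in chinmoST and 16110773, 12601490 and 10559218 UMIs in wild-type, and values per library below keep that order. Late spermatocyte sums were smaller, from 1813398 to 3827794 UMIs, so for genes of like CPM at both stages the late spermatocyte side limits the precision of a ratio. For genes that fall steeply the early spermatid side can hold fewer UMIs, as for jtb in the 6–8 d chinmoST library (22 against 109). The 17612 genes of the tables left 7981 after a filter on low counts. Levels are given as CPM (UMIs of a gene for every 1000000 in the sum), which compare a gene with itself only. A CPM is a share of the RNA counted, and a lower share cannot be told apart from fewer molecules per cell without a second scale, so UMIs per cell are given beside it. The 237 muscle cells of the same libraries should lack germline messages, and their pooled CPM is called the muscle level. It is no floor for germ cells: CycB, for one, lay under its muscle level of 50.8 CPM in all early spermatid sums. The share of free RNA in germ cells was not measured.

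The libraries had features that bear on the results. Barcodes were shared between libraries. The 3–5 d chinmoST and 3–5 d wild-type lists had 255 cell barcodes in common, the 6–8 and 9–11 d chinmoST lists had 83, the 6–8 and 9–11 d wild-type lists had 93, and the other pairs had 0 to 10. Of the late spermatocytes of the 3–5 d chinmoST library, 147 of 518 cells (28.4%, with 24.0% of that sum's UMIs) carried a barcode listed in another library, and in 144 of the 147 the other library's barcode had over 6000 genes. In the other 5 late spermatocyte groups the share was 1.82 to 8.43% of cells, and in early spermatids it was 0.540 to 2.27%. The counts of gained and lost genes, some list medians and the interaction results are therefore given with and without these cells. Other values below include them. Both 3–5 d libraries stood apart: 273 tested genes were at least 2-fold lower, and 28 at least 2-fold higher, in them than in all 4 later libraries at both stages (on CPM + 1). The gene eIF4G2, for example, had 48.2 and 45.6 CPM in the 3–5 d chinmoST and wild-type early spermatids, against 363 to 414 CPM in the later ones. Such a difference enters both stages of a library. In addition, the summed CPM of all 10 lists of somatic marker genes had a lower median in early spermatids, with 424.5 to 839 CPM for the 27 markers together in early spermatids and 1211 to 3833 CPM in late spermatocytes. Of the 15 somatic markers tested, 9 were lower and 1 was higher, beside 40.5% and 30.9% of all tested genes. Without MtnA and CG18628, the other 25 markers summed to 101 to 148 CPM in early spermatids and 185 to 344 CPM in late spermatocytes. The part of somatic RNA in the genes below was not tested.

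The markers by which the study named these stages had the levels below, which is no independent check of the labels. Cyclin B (CycB), which drives entry into meiosis, had 20.4, 24.5 and 31.9 CPM in chinmoST and 22.8, 28.3 and 15.5 CPM in wild-type early spermatids, against 168, 309 and 311 CPM in chinmoST and 219, 227 and 237 CPM in wild-type late spermatocytes. The early spermatid values all lay under the muscle level of 50.8 CPM. The markers fzo and CG3927 were lower as well, by 3.52 and 2.91 on the log2 scale. The spermatid marker Dpy-30L2 was higher by 0.86, but bol, listed for both stages, was higher by only 0.36 and its levels overlapped between the stages. The stages are clusters drawn from the same counts, so the test below measures how alike the change is over libraries and is no independent proof that the stages differ.

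Early spermatids held more UMIs per cell on average. The mean UMIs per cell were 8513, 7642 and 5374 in chinmoST and 20717, 9894 and 7086 in wild-type early spermatids, against 3540, 2572 and 3490 in chinmoST and 6217, 3957 and 3199 in wild-type late spermatocytes. The mean was higher in early spermatids in 6 of 6 libraries, by 1.28 ± 0.386 on the log2 scale (SD, n = 6 libraries, two-sided exact permutation test over sign flips, p = 0.03125, the smallest that 6 pairs allow). The median was higher in 5 of 6 libraries, by 0.49 ± 0.758 (exact permutation p = 0.09375). In cells under 10000 UMIs the median was higher in 4 of 6 libraries, by 0.21 ± 0.386 (exact permutation p = 0.3125). Cells at or above 10000 UMIs made up 7.88 to 59.2% of early spermatids and 2.52 to 13.2% of late spermatocytes. Cells weigh by their UMIs in every sum, and so in all CPM, fold changes and per-cell values below, except where equal weight per cell is named. Medians over all cells were 1725.5 to 12665.5 UMIs in early spermatids and 1674 to 3286 UMIs in late spermatocytes, and the highest was that of the 3–5 d wild-type early spermatids. Cluster 7 of the authors, with 19.4% of early spermatids and a median of 22266 UMIs, held 66.0% of their UMIs. It made up 50.0% of the 3–5 d wild-type early spermatids and 10.3 to 19.1% of the others. In late spermatocytes cluster 6, with 25.7% of the cells and a median of 4359 UMIs, held 47.6% of the UMIs. No doublet caller was run here, and cells with over 6000 genes had been removed by the authors.

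Fewer genes were detected in early spermatids at equal depth. With every cell thinned to 1000 UMIs, median genes per cell were 651, 662 and 674 in chinmoST and 663, 661 and 633 in wild-type early spermatids, against 711.5, 726 and 723 in chinmoST and 716, 697 and 670 in wild-type late spermatocytes. The difference was -49.9 ± 11.7 genes (SD, n = 6), lower in 6 of 6 libraries (exact permutation p = 0.03125), and 56 early spermatids and 40 late spermatocytes under 1000 UMIs were left out. Without thinning, early spermatids were lower in 4 of 6 libraries, and the mean difference of 135 genes (exact permutation p = 0.90625) took its sign from the 3–5 d wild-type library, at 1094.5, without which it was -56.6.

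Across genes, losses were deeper than gains. By edgeR's quasi-likelihood test with the library as a block, 2469 genes (30.9%) were higher in early spermatids and 3232 (40.5%) were lower, at a Benjamini-Hochberg adjusted p under 0.05. The 30.9% higher and 40.5% lower are the background for the counts of every list below. Of the 5701 genes called, 4939 changed the same way in 6 of 6 libraries. Genes at least 2-fold lower, here called lost, numbered 1838 (23.0%), with 462 at least 4-fold and 44 at least 8-fold lower. Only 18 genes (0.226%) were at least 2-fold higher, here called gained, whereas 898 were at least 1.5-fold higher. In all, 1473 genes (18.5%) stayed within 1.5-fold either way in 6 of 6 libraries and are called kept, of which 534 also passed the test. Leaving out shared barcodes gave 23 gained and 1801 lost genes, and 5522 calls were shared with the same direction. The list medians given below were then -1.98 for meiotic division, -1.26 for ribosomal proteins and 0.57 for the Mst and sperm tail genes. Without the 3–5 d libraries, 2180 genes were higher and 3343 lower, with 51 gained and 2158 lost.

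**Figure D1:**
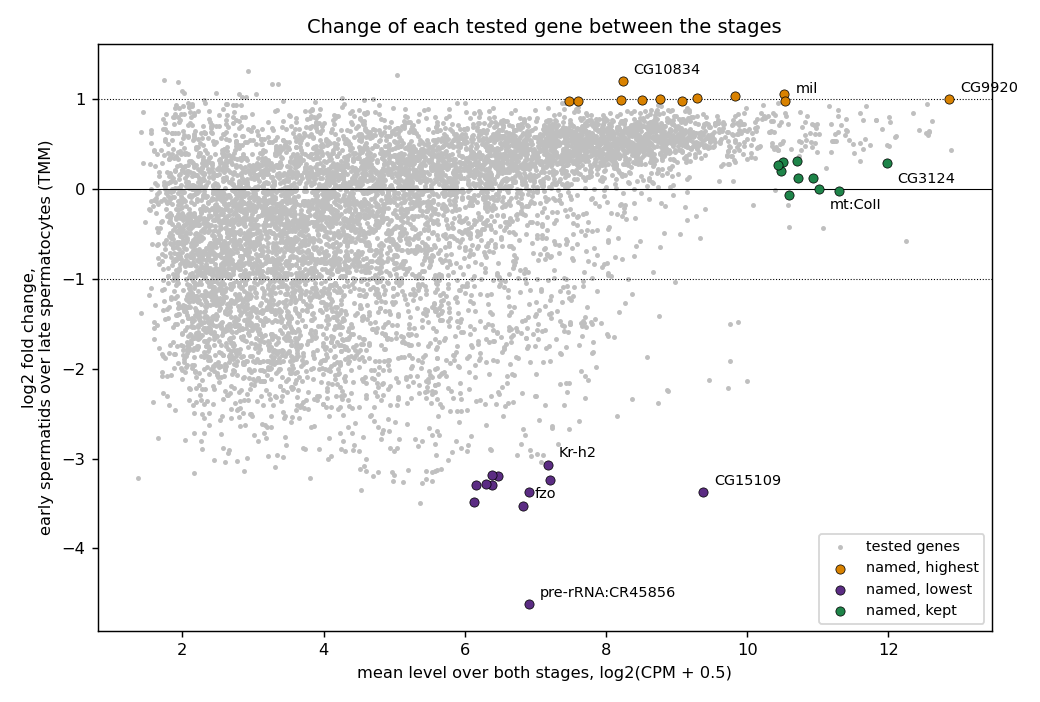
Log2 fold change between early spermatids and late spermatocytes (TMM scale, vertical axis) against the mean level of both stages (log2 of CPM + 0.5, horizontal axis) for the 7981 tested genes in grey, with the 12 highest, 12 lowest and 10 kept genes named in the text in colour and dotted lines at 2-fold. The cloud reaches to 8-fold and more on the lower side and hardly passes 2-fold on the upper side.

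How many genes count as gained depends on what a level is set against. On the scale used here (TMM, the trimmed mean of M values, which scales by the bulk of genes) the median tested gene had a log2 change of -0.13. Scaled by total UMIs alone the median was -0.45, with 0 gained and 2534 lost genes. Per cell, with the number of cells as the scale, the median was 0.84. Then 4912 genes (61.5%) were higher and 1054 (13.2%) lower, and 3493 (43.8%) were at least 2-fold higher and 480 (6.01%) at least 2-fold lower. All 480 genes lost per cell were also among the 1838 lost on the TMM scale. The split of calls moved with the scale: 43.3% of calls were higher by TMM, 22.5% by total UMIs, 82.3% per cell, 50.5% by DESeq2 and 19.8% when every cell had equal weight. The changes below are on the TMM scale, relative to its median, and a per-cell value is added where it matters.

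The 12 genes that fell furthest among well-expressed ones were led by the precursor ribosomal RNA pre-rRNA:CR45856 and by fzo. The gene fzo, a marker by which the study named late spermatocytes, encodes the mitofusin that fuses the mitochondria of the early spermatid into the nebenkern. It lies on chromosome 3R from 23201644 to 23204034 (Ensembl annotation of BDGP6), where cnc overlaps it on the same strand, so reads of the pair may be split. Its level was 5.16, 14.1 and 24.8 CPM in chinmoST and 7.24, 27.1 and 15.4 CPM in wild-type early spermatids, against 103, 259 and 299 CPM in chinmoST and 115, 237 and 251 CPM in wild-type late spermatocytes. The stages did not overlap, and fzo was 11.5-fold lower (log2 change -3.52, SD 0.38 over libraries, adjusted p = 2.59e-13). Its early spermatid median of 14.7 CPM lay below the muscle level of 31.3 CPM.

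The other genes lost furthest had the same form: high in every late spermatocyte sum and at the muscle level or under it in early spermatids. The testis proteasome subunit gene Prosalpha4T1 (chromosome 3R, 20748184 to 20749074) had 6.70, 9.37 and 14.9 CPM in chinmoST and 7.36, 11.9 and 6.04 CPM in wild-type early spermatids, against 92.7, 156 and 175 CPM in chinmoST and 115, 99.1 and 137 CPM in wild-type late spermatocytes. That is 11.2-fold lower (log2 change -3.49, adjusted p = 9.11e-13). A second testis subunit gene, Prosbeta2R2, was 9.83-fold lower, at 6.80 to 18.6 CPM in early spermatids and 88.9 to 171 CPM in late spermatocytes. The most abundant of the 12 was CG15109 (chromosome 2R, 19059421 to 19061065), with 60.5 to 142 CPM in early spermatids and 764 to 1559 CPM in late spermatocytes, 10.4-fold lower. Kr-h2, a membrane protein gene, was 8.38-fold lower. The remaining 6 were CG4891, CG43997, CG31068, CG15876, CG15395 and CG33252, between 9.10 and 10.3-fold lower. In all 12 genes the early spermatid median was at or below the muscle level. That level is no free-RNA floor, least of all for a gene that muscle itself may express, such as Kr-h2 or pre-rRNA:CR45856. Per cell the 12 stayed lower, by 2.10 to 3.47 on the log2 scale. In cells under 10000 UMIs the changes were -3.61 to -1.92, with fzo at -2.15.

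The exception among the 12 was pre-rRNA:CR45856, which belongs to a repeated gene array whose copies share reads. Its late spermatocyte level ranged over 1.64, 414.5 and 691 CPM in chinmoST and 12.5, 176 and 100.1 CPM in wild-type, and its early spermatid level over 1.18, 7.29 and 21.4 CPM in chinmoST and 1.11, 1.90 and 6.70 CPM in wild-type. The 3–5 d libraries were lowest in both genotypes at both stages. The fitted log2 change was -4.62 (adjusted p = 9.56e-10), but the within-library log2 ratios ranged around -3.78 with an SD of 2.15, and in the 3–5 d chinmoST library the stages were nearly equal.

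The 12 highest genes rose by about 2-fold. Highest was CG10834 (chromosome 2L, 22106862 to 22107304), with 442, 342 and 382 CPM in chinmoST and 455, 363 and 349.5 CPM in wild-type early spermatids, against 262, 149 and 194 CPM in chinmoST and 243, 209 and 217 CPM in wild-type late spermatocytes. It was 2.29-fold higher on the TMM scale (log2 change 1.19, adjusted p = 2.80e-10). The long noncoding RNA lncRNA:CR32652 had 1385 to 2141 CPM in early spermatids and 983 to 1278 CPM in late spermatocytes (log2 change 1.05). CG13476, which overlaps ome, and CG16719 rose by 1.03 and 1.01. These 4 were the only gained genes with a mean of 100 CPM or more in early spermatids. The other 14 gained genes had means of 3.79 to 42.8 CPM, and 11 of them were noncoding RNAs.

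Just under 2-fold stood 8 further genes, from 0.99 to 0.97 on the log2 scale. The most abundant was CG9920, a homolog of the mitochondrial co-chaperonin Hsp10 (chromosome 3R, 14097293 to 14098080), with 8007 to 10752 CPM in early spermatids and 3956 to 7578 CPM in late spermatocytes, a 1.99-fold change. Parts of a motor and a pump are encoded by robl37BC, of the roadblock family of dynein light chains (0.99), and by VhaM9.7-d, a subunit of the vacuolar proton pump (0.98). The rest were CG31697, CG31819, CG7295, mil, a nucleosome assembly protein gene (0.98), and lncRNA:CR32657. The levels of the stages did not overlap for 10 of the 12, mil and lncRNA:CR32657 being the exceptions, and all 12 were higher in 6 of 6 libraries. Their early spermatid medians were all above the muscle level. In cells under 10000 UMIs the log2 changes of the 12 were smaller for most, from 0.35 (mil) to 1.19 (lncRNA:CR32652), with CG13476 at 0.55, CG16719 at 0.62 and CG10834 at 0.84. With equal weight per cell they ranged from 0.18 (mil) to 0.84 (lncRNA:CR32652).

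**Figure D2:**
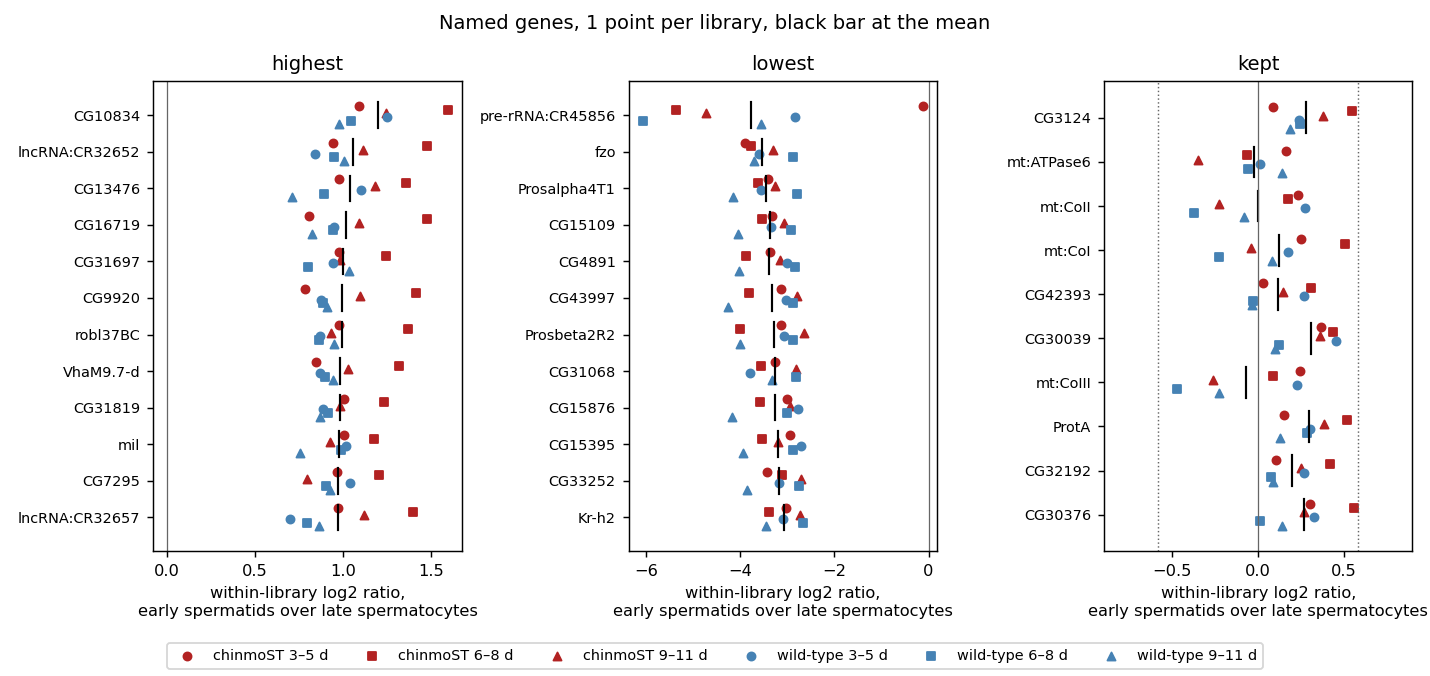
Within-library log2 ratio of early spermatids over late spermatocytes (horizontal axis) for the named highest, lowest and kept genes, 1 point per library (chinmoST red, wild-type blue, shapes for age), with a black bar at the mean of 6 libraries and dotted lines at 1.5-fold in the kept panel. The highest genes sit between about 0.7 and 1.6 in all libraries, the lowest between -2.6 and -4.3 apart from pre-rRNA:CR45856, which spans -6.1 to -0.1.

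On the TMM scale noncoding RNA genes had more members higher than lower, and protein-coding genes fewer. Of 828 tested noncoding RNA genes, 325 were higher and 190 lower with a median log2 change of 0.20, and of 7082 protein-coding genes 2127 were higher and 3012 lower with a median of -0.18. Per cell both classes had more genes higher than lower, with medians of 1.19 for noncoding and 0.79 for protein-coding genes. Among the 18 gained genes 12 were noncoding. Chromosomes did not differ much: medians of X, 2L, 2R, 3L, 3R, 4 and Y lay between -0.16 and -0.07.

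The most abundant kept genes were mitochondrial or of unknown role, with one protamine. The mitochondrial messages mt:CoI, mt:CoII, mt:CoIII (subunits of cytochrome c oxidase) and mt:ATPase6 (ATP synthase) had log2 changes of 0.12, -0.00, -0.07 and -0.03, and none was called. mt:ATPase6 stood at 2072, 2283 and 1844 CPM in chinmoST and 1583, 2480 and 3101 CPM in wild-type early spermatids, against 2329, 3140 and 2832 CPM in chinmoST and 1994, 3061 and 3437 CPM in wild-type late spermatocytes. The muscle level of these 4 genes, 2611 to 3995 CPM, is not a background, since muscle has mitochondria of its own. ProtA, which packs sperm DNA, had 1201 to 1874 CPM in early spermatids and 1106 to 1935 CPM in late spermatocytes, with a log2 change of 0.29 that passed the test (adjusted p = 0.000611). The others were CG3124, CG42393, CG30039, CG32192 and CG30376, from 0.11 to 0.31. By total UMIs all 10 changes were below 0, from -0.39 (mt:CoIII) to -0.01 (CG30039). The levels of the stages overlapped in all 10. Per cell, the same 10 genes were 0.90 to 1.27 higher on the log2 scale.

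The genes of the meiotic divisions were the list that fell most. Of 21 genes 19 were tested, of which 15 fell and 3 rose, with a median log2 change of -1.96 beside -0.13 over all tested genes, and 14 were lost. In this list CycB, twe and bol are markers by which the study named its stages, so their changes are no independent result. CycB3 and fzy, the activator of the anaphase-promoting complex, both fell by 3.15 on the log2 scale (CycB3 3.08 to 5.46 CPM in early spermatids and 30.5 to 59.9 CPM in late spermatocytes, fzy 3.21 to 7.89 CPM in early spermatids and 36.5 to 78.0 CPM in late spermatocytes). The midzone protein gene feo and the kinase gene aurB fell by 2.88 and 2.77, and the checkpoint genes BubR1 and mad2 by 2.14 and 1.94. The Cdc25 phosphatase twine (twe), which triggers meiosis, had 45.1, 46.7 and 41.2 CPM in chinmoST and 49.5, 39.4 and 30.6 CPM in wild-type early spermatids, against 132, 170 and 168 CPM in chinmoST and 149, 150.2 and 158 CPM in wild-type late spermatocytes. That was 2.97-fold lower (adjusted p = 5.75e-10), and the stages did not overlap. Against the list stood endos, an inhibitor of the phosphatase PP2A (0.68), fzr2 (0.41) and bol, an RNA-binding regulator of twe translation (0.36), of which 1 stayed called by total UMIs. In 11 of the 19 genes the early spermatid median was at or below the muscle level. Per cell, 14 of 19 fell and 5 rose, with a median of -1.0.

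**Figure D3:**
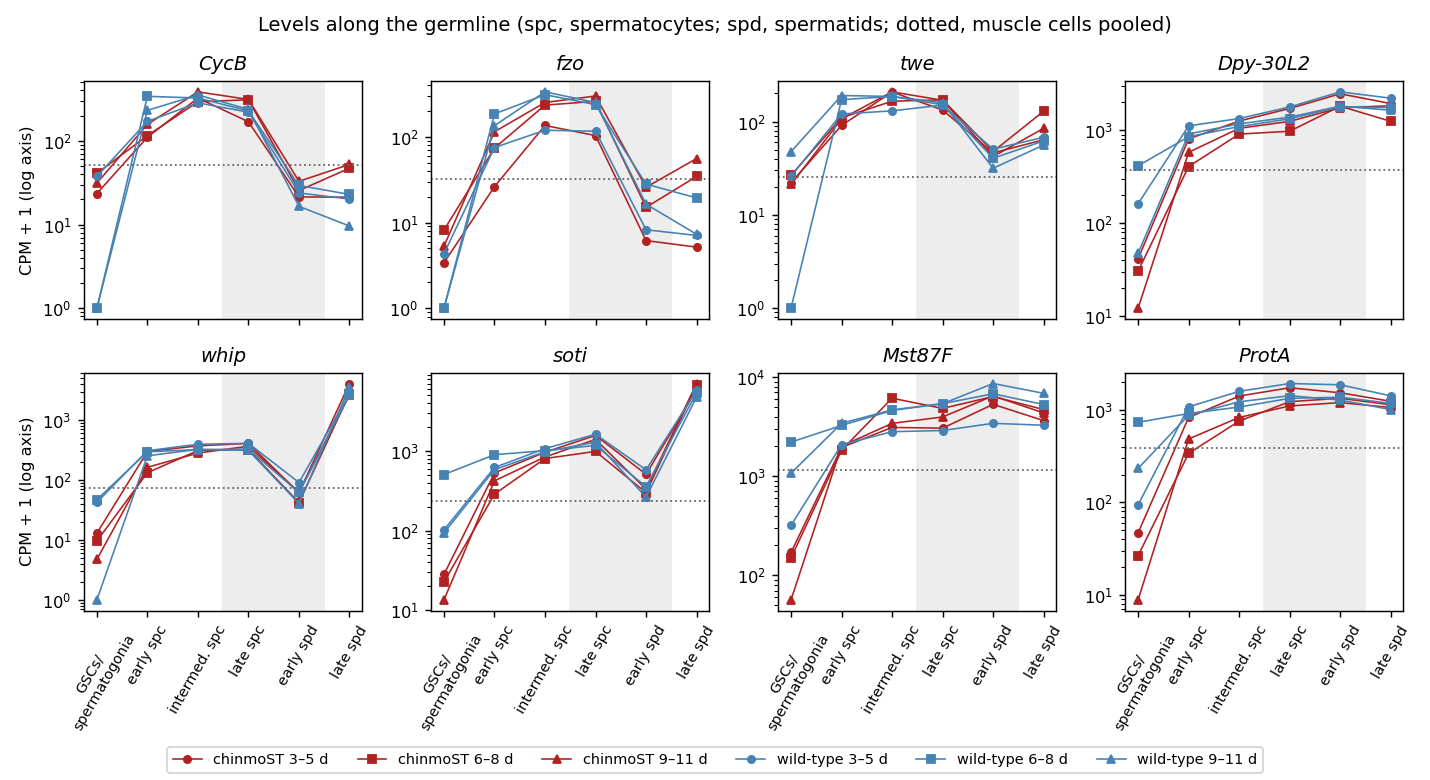
CPM + 1 (log axis) along the 6 germline stages for 8 genes, 1 line per library (chinmoST red, wild-type blue), the 2 compared stages shaded and the pooled muscle level dotted. CycB, fzo and twe drop between late spermatocytes (late spc) and early spermatids (early spd), whip and soti drop and then rise in late spermatids, and Dpy-30L2, Mst87F and ProtA stay high.

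Spermatocyte transcription genes fell as a list. They include the meiotic arrest genes aly, comr, tomb and topi (the tMAC complex) and the testis TAFs can, mia, nht, sa and Taf12L, which turn on the spermatocyte program. Of 14 genes 13 were tested, 10 fell and 1 rose, with a median of -1.12 and 8 lost. Of the list, wuc, kmg, nht, sa and Taf12L are the study's markers of earlier spermatocyte stages, so their fall is no independent result. The leading member, aly, had 2.08 to 6.20 CPM in early spermatids and 9.47 to 30.2 CPM in late spermatocytes, a log2 change of -1.92, and kmg, which keeps somatic genes off in spermatocytes, fell by 1.91. Only mip40 rose (0.38), and by total UMIs it was not called. Per cell 5 fell and 3 rose, with a median of -0.13, so the median moved close to 0 on that scale.

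Most cup and comet genes had lower levels in early spermatids than in the late spermatocytes before and the late spermatids after. They are known for transcription after meiosis and for RNA at the ends of the spermatid tail. Of 19 genes 14 were tested, 11 fell and 3 rose, with a median of -1.79. The 3 were schuy, m-cup and t-cup, and by total UMIs they were not called higher (11 fell and 0 rose). The gene whip had 60.3, 41.0 and 61.2 CPM in chinmoST and 89.9, 61.1 and 39.5 CPM in wild-type early spermatids, against 408, 322 and 365 CPM in chinmoST and 409, 327 and 311 CPM in wild-type late spermatocytes, 5.01-fold lower. In late spermatids its median was 2770 CPM. The gene soti, an inhibitor of the Cul3 ubiquitin ligase of individualization, was 2.84-fold lower, with 262 to 580 CPM in early spermatids and 989 to 1623 CPM in late spermatocytes, and its late spermatid median was 5828 CPM. In 14 of the 14 tested genes the late spermatid median was above the early spermatid median. Of the list, 8 genes (whip among them, soti not) are the study's markers of late spermatids, so their level there is no independent result. The early spermatid median was at or below the muscle level in 5 of the 14 genes. Per cell 8 fell and 3 rose, with a median of -0.83.

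The Mst and sperm tail list rose nearly as a whole, whereas other genes of the tail, given below, moved both ways. All of the 15 tested genes of the Mst and sperm tail list but Mst36Fb (-0.01, not called) rose, with a median of 0.60 and a range of 0.39 to 0.84 for the 14 called. Mst87F, whose message is a classic case of storage until late translation, had 5314, 6370 and 6473 CPM in chinmoST and 3416, 6793 and 8625 CPM in wild-type early spermatids, against 3052, 4835 and 3960 CPM in chinmoST and 2891, 5401 and 5395 CPM in wild-type late spermatocytes. It was 1.79-fold higher, in 6 of 6 libraries, although the stage ranges overlapped. Mst84Dc rose by the same 0.84, djl by 0.71 and ocn by 0.65. By total UMIs alone 12 of the 15 still rose and 1 fell, and per cell all 15 rose.

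The testis-specific beta tubulin gene betaTub85D, needed for the axoneme, had 3956, 3273 and 3377 CPM in chinmoST and 4424, 3624 and 3382 CPM in wild-type early spermatids, against 2750, 2156 and 2357 CPM in chinmoST and 3146, 2797 and 2910 CPM in wild-type late spermatocytes. It was 1.70-fold higher without overlap (adjusted p = 3.00e-08). The general isotype betaTub56D fell by 1.86, at 11.3 to 47.4 CPM in early spermatids and 55.9 to 151 CPM in late spermatocytes, but the muscle level of 1049 CPM is far above both. Of the 19 tested genes of tubulin, axoneme and centriole 8 rose, 6 fell and 5 were not called, with a median of 0.10. Over all tested genes 30.9% rose and 40.5% fell. Among the 4 tested dynein heavy chains of the list, Dhc98D, Dhc62B and Dhc36C fell by 2.11, 0.83 and 0.30, and Dhc16F had -0.31 and was not called. Tektin-A and Tektin-C rose by 0.46 and 0.57. By total UMIs the median of the list was -0.22, and with equal weight per cell -0.23.

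Y-linked fertility genes were mixed, with a median of -0.40 on the TMM scale and 0.59 per cell, where 5 rose and 3 fell. Of 10 tested, with 30.9% of all genes higher and 40.5% lower, ARY and Pp1-Y2 rose (0.95 and 0.71) and kl-2, ORY, kl-3 and kl-5 fell (by 2.10, 2.05, 1.72 and 0.73). The kl genes encode giant dynein heavy chains with very long introns. The gene kl-3 was lower in the 3–5 d libraries, which stood apart, than in the later ones. Early spermatids had 3.98 and 5.01 CPM in the 3–5 d chinmoST and wild-type libraries, and 11.8 to 14.4 CPM in the later ones. Late spermatocytes had 3.27 and 8.79 CPM in the 3–5 d libraries, and 25.3 to 183 CPM in the later ones. The part of age in this difference was not tested. ARY, an aldehyde reductase gene, had 65.3 to 101 CPM in early spermatids and 37.8 to 67.8 CPM in late spermatocytes.

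Sperm chromatin genes moved both ways, with changes from -1.58 to 0.68 (median 0.02). Of 15 genes 7 rose and 5 fell (46.7% and 33.3%, beside 30.9% and 40.5% of all tested genes). Per cell 11 rose and 2 fell (median 0.99), beside 61.5% and 13.2% of all tested genes. ProtB (0.41), Tpl94D, a transition protein (0.68), Prtl99C (0.62), Mst33A and tHMG2 rose, and Mst77F, a linker-histone-like protein of sperm, fell by 0.59, with 3128 to 3607 CPM in early spermatids and 5462 to 7291 CPM in late spermatocytes without overlap. The histone variant genes His3.3A and His4r fell by 0.82 and 1.58. By total UMIs the median of the list was -0.30, with equal weight per cell it was -0.42, and the rise of ProtA became -0.02 without a call.

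Among regulators of translation, 5 of 8 tested rose and 2 fell, beside 30.9% and 40.5% of all tested genes (median 0.37, but -0.03 with equal weight per cell). The testis initiation factor eIF4E3 (0.54), orb2, an RNA-binding activator of stored messages (0.58), fest (0.47), Syp (0.52) and eIF4G2 (0.26) rose, whereas orb (-0.59) and Rbp4 (-1.03) fell. The gene orb, needed late in spermatids, had 102 CPM in early spermatids, 220 CPM in late spermatocytes and 1340 CPM in late spermatids (medians over libraries).

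Of 19 genes of sperm mitochondria 11 rose and 6 fell, beside 30.9% and 40.5% of all tested genes (median 0.27, but -0.04 by total UMIs). Cytochrome c has a testis form and a general one, and they moved apart: Cyt-c-d rose by 0.71, with 1533 to 1986 CPM in early spermatids and 1081 to 1561 CPM in late spermatocytes, and Cyt-c-p fell by 2.17, with 4.75 to 12.1 CPM in early spermatids and 23.9 to 78.0 CPM in late spermatocytes. The muscle level of Cyt-c-p was 205 CPM. Opa1, the fusion factor of the inner membrane, fell by 2.53, and Pink1 (0.28) and Drp1 (0.21), a fission factor, rose. The leucyl aminopeptidases of the sperm paracrystalline material, S-Lap1, S-Lap2, S-Lap3, S-Lap4, S-Lap5, S-Lap7 and S-Lap8, all rose, by 0.27 to 0.47.

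Respiratory chain genes are held in the nucleus and in the mitochondrial genome. Of 87 tested nuclear OXPHOS genes 50 rose and 20 fell (median 0.26, 35 kept), and of 15 tested mitochondrial genes 1 rose, 5 fell and 7 were kept (median -0.03). Over all tested genes 30.9% rose, 40.5% fell and 18.5% were kept. By total UMIs the nuclear list turned to a median of -0.05 with 25 genes higher and 31 lower, and the mitochondrial list to -0.34 with 0 higher and 12 lower. With equal weight per cell, 17 nuclear genes were higher and 43 lower, and 0 mitochondrial genes were higher and 11 lower. Per cell the medians were 1.24 for the nuclear list and 0.90 for the mitochondrial list. Testis-enriched paralogs, named with a final L, were compared with their general form in a pairing chosen after the values were seen. Of 20 paralogs 15 rose and 2 fell, whereas of their 18 general forms 2 rose and 11 fell. In 18 of 20 pairs the paralog had the higher log2 change. Among them COX7CL had 606 to 729 CPM in early spermatids and 393 to 549 CPM in late spermatocytes (0.80), and COX7C had 5.46 to 13.5 CPM in early spermatids and 28.9 to 65.4 CPM in late spermatocytes (-2.02), with a muscle level of 301 CPM. ATPsynbetaL, by contrast, fell with its general form (-2.30 and -1.91), and SdhAL (-0.10, not called) stayed behind SdhA (0.56).

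The testis proteasome genes split within pairs of duplicates. Of 14 genes, all tested, 7 rose and 5 fell (median 0.20), beside 30.9% and 40.5% of all tested genes. Prosalpha4T2 had 376 to 405 CPM in early spermatids and 296 to 331 CPM in late spermatocytes (0.60), while its duplicate Prosalpha4T1 fell by 3.49. Prosbeta2R1 rose by 0.60 and Prosbeta2R2 fell by 3.3, Prosbeta5R1 rose by 0.38 and Prosbeta5R2 fell by 2.16, and Prosbeta4R2 rose by 0.60 and Prosbeta4R1 fell by 0.79. Prosalpha3T fell by 2.80 and Prosalpha6T rose by 0.70. By total UMIs the list's median was -0.12, with 5 genes higher and 6 lower.

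Of 11 tested individualization genes 7 rose and 3 fell (median 0.40), beside 30.9% and 40.5% of all tested genes. By total UMIs 5 rose (median 0.09), without the library block 4 rose, and per cell 8 rose and 0 fell. Among them gdrd was highest at 0.74, and Bug22, Past1, Cul3 and jar lay between 0.54 and 0.56. Dronc, a caspase, fell by 0.77 at 2.26 to 4.71 CPM in early spermatids and 6.00 to 16.9 CPM in late spermatocytes.

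On the TMM scale ribosomal protein genes fell nearly without exception. Of 90 tested 82 fell and 4 rose (RpL10Aa, RpL41, RpS19b and RpS28-like), with a median of -1.28 and 62 lost. RpL7 had 36.8, 49.8 and 153 CPM in chinmoST and 32.6, 16.1 and 11.7 CPM in wild-type early spermatids, against 219, 359 and 313 CPM in chinmoST and 119, 73.2 and 43.8 CPM in wild-type late spermatocytes. Its values were higher in chinmoST than in wild-type at both stages, and the stage ranges overlapped, yet it was lower in early spermatids in 6 of 6 libraries (3.37-fold). The summed list had 6517 to 18456 CPM in early spermatids and 10183 to 36450 CPM in late spermatocytes, with 204264 CPM in muscle. In 85 of the 90 genes the early spermatid median was at or below the muscle level, and the part of free somatic RNA in the difference was not tested. Per cell 38 fell and 13 rose, with a median of -0.31. In cells under 10000 UMIs 81 of 89 fell and 5 rose, with a median of -0.76.

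**Figure D4:**
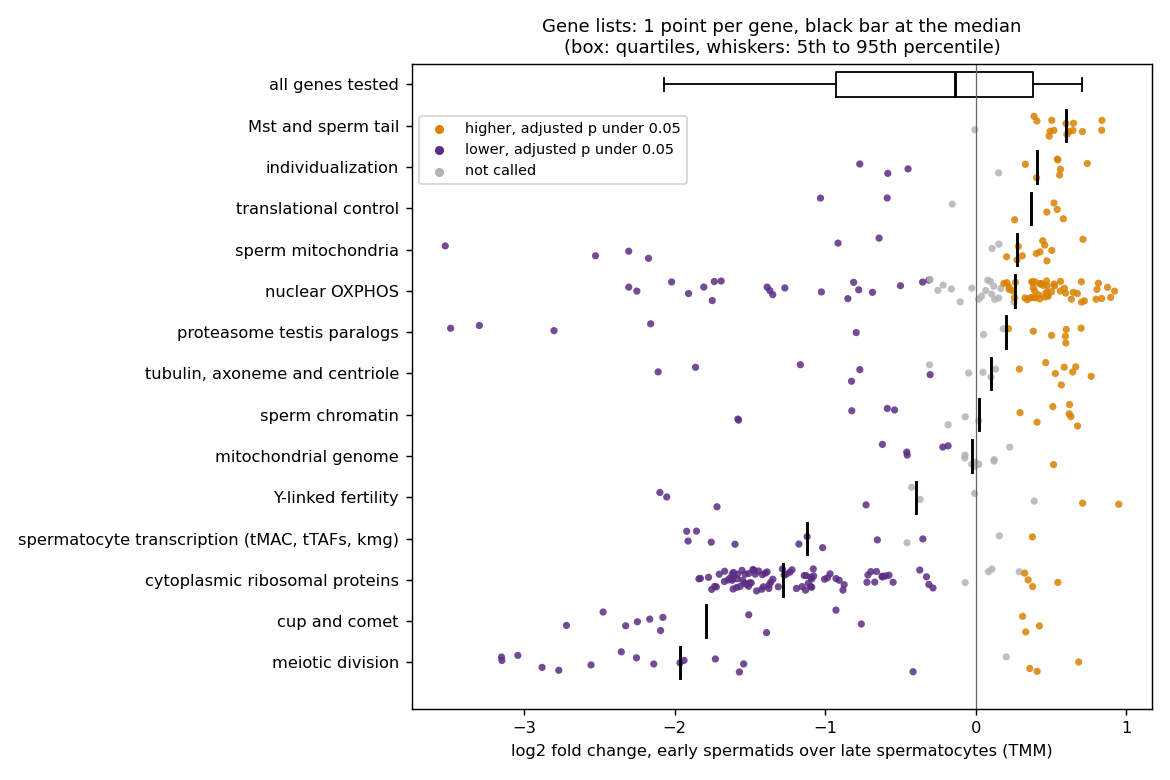
Log2 fold change of early spermatids over late spermatocytes (TMM, horizontal axis) for each tested gene of the 14 lists, orange where higher and purple where lower at adjusted p under 0.05 and grey where not called, with a black bar at each list's median and a box for all tested genes. Meiotic division, cup and comet, and ribosomal protein genes lie to the left, and the Mst and sperm tail genes lie to the right of 0 apart from Mst36Fb.

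Each genotype was also fitted alone. Within chinmoST alone 136 genes were gained and 2153 lost of 7862 tested, and within wild-type alone 29 and 1949 of 9044 tested. These counts come from separate fits and do not test a difference. The within-library ratios of the lists had a median of -1.97 in chinmoST and -1.90 in wild-type for meiotic division, of -1.45 in chinmoST and -1.18 in wild-type for ribosomal proteins, and of 0.68 in chinmoST and 0.48 in wild-type for the Mst and sperm tail list. Among the 90 ribosomal protein genes 26 had an unadjusted interaction p under 0.05, as had 540 of all 7981, and 0 were called. Over all tested genes the median ratio was -0.18 in chinmoST and -0.05 in wild-type. The difference itself was tested as the interaction of genotype and stage.

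The test called 10 of 7981 genes (0.125%) with a change lower in chinmoST, and 0 (0.0%) with a change higher in chinmoST, by edgeR's quasi-likelihood test, with 540 genes at an unadjusted p under 0.05. The log2 ratios did not overlap between the genotypes in any of the 10, as was also the case in 1105 of all tested genes. DESeq2 called 12 and limma on the 6 within-library ratios called 0, with 526 at an unadjusted p under 0.05. Without barcodes shared between libraries 2 of 7942 (0.0252%) were called, and 426 had an unadjusted p under 0.05.

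The 2 still called were CG43800 and CG13540. CG43800 (chromosome 2L, 7232165 to 7232813), which Ndae1 overlaps on the same strand, had 97.5, 70.1 and 83.7 CPM in chinmoST early spermatids and 343, 311 and 257 CPM in wild-type early spermatids, against 318.5, 477 and 392 CPM in chinmoST late spermatocytes and 593, 532.5 and 493 CPM in wild-type late spermatocytes. The fall was steeper in chinmoST, with log2 ratios of -1.37, -2.36 and -1.96 in chinmoST and -0.44, -0.53 and -0.65 in wild-type. The difference was -1.35 (adjusted p = 0.00470) with all cells, and -1.31 (adjusted p = 0.0240) without shared barcodes. CG13540 (chromosome 2R, 23270477 to 23271059) had log2 ratios of -1.54, -2.10 and -1.20 in chinmoST and 0.31, -0.06 and -0.20 in wild-type, a difference of -1.65 (adjusted p = 0.00470), or -1.56 without shared barcodes (adjusted p = 0.0240). Of their late spermatocyte UMIs in the 3–5 d chinmoST library, 173 of 584 (CG43800) and 50 of 120 (CG13540) came from shared barcodes. Leaving out that whole library left CG43800 as the only call, since CG13540 then had an adjusted p = 0.0663.

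For 3 other genes the late spermatocyte signal of the 3–5 d chinmoST library came wholly from shared barcodes. In CG43401 these were 10 of 10 UMIs, in AstCC, an allatostatin neuropeptide gene, 17 of 17, and in DIP-delta, a cell surface protein of the immunoglobulin superfamily, 17 of 17. CG43401 had 1, 0 and 0 UMIs in chinmoST early spermatids, against 928, 861 and 796 in wild-type early spermatids, and its late spermatocyte sums in chinmoST held 10, 1 and 0 UMIs. In chinmoST AstCC had 2, 0 and 1 early spermatid and 17, 0 and 1 late spermatocyte UMIs, and DIP-delta had 10, 3 and 1 early spermatid and 17, 3 and 2 late spermatocyte UMIs. The chinmoST ratios of these 3 genes thus rest on a few UMIs, their fitted sizes depend on the prior count, and without shared barcodes their 3–5 d ratios were 0.37, 0.67 and 1.99. The difference of CG43401 was -5.70 with all cells (adjusted p = 0.00800) and -2.09 without shared barcodes (adjusted p = 0.853). The differences of AstCC and DIP-delta were -4.97 and -3.20, and -0.39 and -0.93 without shared barcodes, with neither called.

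Among the other 5 genes the share of shared barcodes was smaller but above 0. Of the late spermatocyte UMIs in the 3–5 d chinmoST library, it took 9 of 13 in CG7194, 15 of 33 in CG9705, 46 of 98 in jtb, 12 of 44 in Sodh2 and 35 of 143 in Dad1. CG7194 also had few UMIs in chinmoST, with 6, 4 and 3 in early spermatids and 13, 5 and 5 in late spermatocytes, so its size is as uncertain. Dad1, an oligosaccharyltransferase subunit gene, fell in both genotypes, with ratios of -1.95, -2.49 and -2.05 in chinmoST and -0.77, -1.09 and -1.08 in wild-type. The differences of Dad1 and of Sodh2, a sorbitol dehydrogenase gene (-1.19 and -2.0), became -1.21 and -1.94 without shared barcodes, each with an adjusted p = 0.0531. Those of CG7194, CG9705 and jtb became -2.23, -1.55 and -1.41 and were no longer called.

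**Figure D5:**
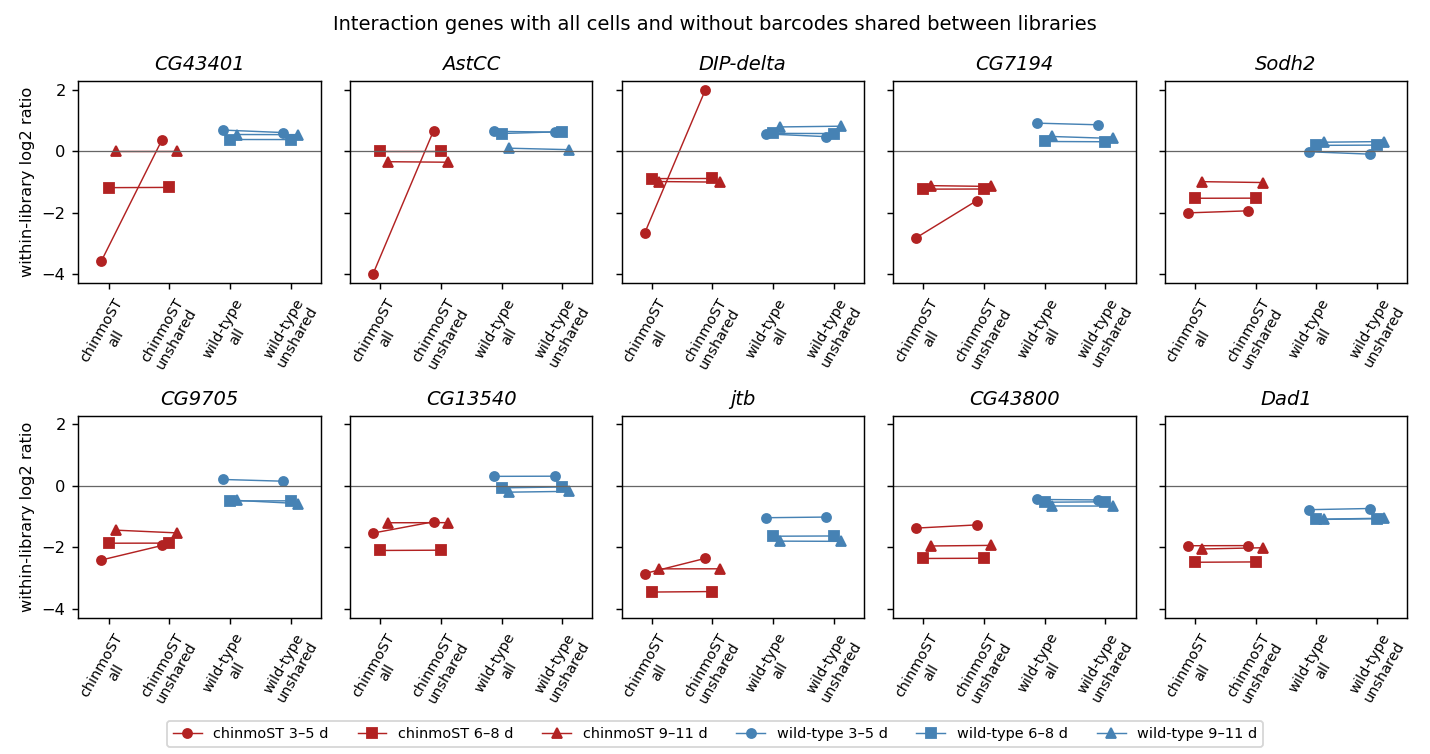
Within-library log2 ratio (vertical axis) of early spermatids over late spermatocytes for the 10 interaction genes, 1 point per library, joined from all cells to cells without shared barcodes (chinmoST red on the left, wild-type blue on the right). In CG43401, AstCC and DIP-delta the 3–5 d chinmoST point moves from below 0 to above 0, whereas in CG43800 and Dad1 all points hardly move.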

How the data were processed

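Testes of adult males were dissociated and run on the 10x Genomics 3′ v3 platform, 1 library per genotype and age. Per the labels and methods, the authors aligned reads to dm6 with Cell Ranger 4.0.0 and deposited a table of UMI counts per gene and cell for each library; they kept cells with 200 to 6000 genes and under 10% mitochondrial UMIs, integrated and clustered them in Seurat 3.2.2 and named the clusters. Cell types, clusters and the percent of mitochondrial UMIs come from the deposited cell table.

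From these, counts were summed per library and stage (12 sums) and tested with edgeR 4.0.16 in R 4.3.3 (quasi-likelihood, TMM factors, filterByExpr, library as a block, Benjamini-Hochberg over 7981 genes). The interaction added stage by genotype. Within-library ratios used log2 CPM with a prior count of 2. Alternatives used DESeq2 1.42.0 and limma 3.58.1. Single values were tested by exact sign-flip permutation over 6 libraries, two-sided. The fits were tested on simulated data. At a log2 change of 1 the stage fit recovered 96 of 101 genes and the interaction fit 57 of 103. At a log2 change of 2 they recovered 89 of 89 and 86 of 90. False calls numbered 14 for the stage and 7 for the interaction. Symbols and positions came from the Ensembl annotation of BDGP6 (17537 of 17612 IDs matched); no sequence is shown.

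The members, lists, tests and markers were chosen with earlier results of these data known. Named genes are the 12 highest and 12 lowest fold changes among genes called, changed alike in 6 of 6 libraries and at 100 CPM or more in the higher stage; the 10 most abundant kept genes; the 10 largest interaction differences without overlap; and members of 14 lists. The alternatives that leave out shared barcodes, cap cells at 10000 UMIs or weigh cells equally were added after seeing the data.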

Additional observations from a re-analysis of the deposited data

Results flagged for a closer look

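In 43 sets of 6 libraries examined, 4 held a library far from the other 5, where chance gives about 1 in 20. The 6–8 d chinmoST library had the highest ratio of robl37BC, at 1.36 against 0.86 to 0.98 in the others, and of CG31819, at 1.23 against 0.87 to 1.00. The 3–5 d wild-type library had the highest median of UMIs per early spermatid, 12665.5 against 1725.5 to 3228, and the highest difference of log2 medians between the stages, 1.95 against -0.06 to 0.67. In that library 50.0% of the early spermatids lay in cluster 7, and the part of this cluster in its difference was not tested.

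The genotype by stage test called 10 genes, each with a lower fitted change in chinmoST. The log2 differences of chinmoST minus wild-type were -5.70 for CG43401, -4.97 for AstCC, -3.20 for DIP-delta, -3.02 for CG7194, -2.0 for Sodh2, -1.73 for CG9705, -1.65 for CG13540, -1.59 for jtb, -1.35 for CG43800 and -1.19 for Dad1. CG43401, AstCC, DIP-delta and CG7194 had 0 to 10 early spermatid and 0 to 17 late spermatocyte UMIs in any chinmoST library, so their sizes cannot be read. Without barcodes shared between libraries, CG43401, AstCC, DIP-delta and CG7194 were at -2.09, -0.39, -0.93 and -2.23 and not called, while CG13540 and CG43800 kept an adjusted p under the threshold.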

How the results depend on the processing

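Gained genes numbered 18 in the reported fit, 0 by total UMIs, 3493 per cell, 102 by DESeq2, 149 without the low-count filter, 71 in cells under 10000 UMIs, 4 with equal weight per cell, 51 in later ages only, 136 within chinmoST and 29 within wild-type, and 8 to 42 without 1 library. Lost genes numbered 1838, or 480 per cell and 1041 in cells under 10000 UMIs. Interaction calls numbered 10, or 2 without shared barcodes, 36 without the filter, 2 in cells under 10000 UMIs, 3 in later ages, 0 by limma and 1 to 33 without 1 library: 1 without chinmoST replicate 1, 33 without chinmoST replicate 3 and 5 without wild-type replicate 2. Deviations of same-age libraries correlated at 0.12, 0.03 and 0.05 over 7981 genes, and those of unlike ages at -0.12 to 0.08. Whether age pairs the genotypes was not tested. With age as replicate block the interaction calls numbered 43, and 22 with the block and without shared barcodes. Without the library block the stage calls fell to 1664 higher and 2426 lower. UMIs per cell differed by 0.53 above a common minimum and 1.28 by means, both with an exact permutation p = 0.03125. In cells under 10000 UMIs they differed by 0.21 (exact permutation p = 0.3125). Thinned genes per cell differed by -52.7 to -47.1 without 1 library, where the exact p could not go below 0.0625. Not thinned they differed by 135, lower in 4 of 6 libraries, and by -56.6 to 192 without 1 library, the lowest without the 3–5 d wild-type library. CG32192 turned to -0.12 by total UMIs. Of the named genes' other values, 613 kept their call or level, 32 moved and 1 turned for the stage, and 97 kept and 63 lost their call for the interaction. The causes were not tested.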
